A study of Mus musculus with 10 samples.

Results

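The genes of 10 selenoproteins were followed in brain microglia of mice given vehicle or GW2580: the glutathione peroxidases Gpx1 and Gpx4, the methionine sulfoxide reductase Msrb1, the thioredoxin reductase Txnrd2, and Selenow, Selenom, Selenof, Selenok, Selenos and Selenop. They were taken as a list of symbols and matched to the NCBI gene numbers of the count files through the RefSeq table of GRCm38. All 10 symbols matched, of 46152 genes counted, and 9 had a count in at least 1 library. Txnrd2 had 0 counts in all 10 libraries and was dropped from the comparison.

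The mice were male and female C57BL/6J, 8 to 12 weeks old, gavaged daily for 8 days. The 5 vehicle mice received Tween 80 with Hydroxymethyl Propyl-cellulose, and the 5 GW2580 mice received the same mixture with GW2580, an inhibitor of the CSF1R kinase, at 80 mg/kg/d. Each group held 2 males and 3 females, 1 library per mouse, named here by group and replicate number. Microglia were enriched on Percoll and selected with antibodies to CD11b, which myeloid cells other than microglia also carry, and cDNA was made with the SMART-Seq v4 PLUS kit.

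Selenoproteins carry selenocysteine, a cysteine analogue with selenium in place of sulfur. It is inserted during translation at a TGA codon, which otherwise ends a protein, and this needs a dedicated tRNA, an elongation factor and proteins that bind a stem-loop in the same mRNA. In the glutathione peroxidases and Msrb1 selenocysteine is the catalytic residue, and glutathione or thioredoxin supplies the electrons. Brain retains selenium when other organs lose it, and several of these proteins remove peroxides or repair oxidised residues, which is relevant to microglia because they produce reactive oxygen species.

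All 10 genes have an annotated selenocysteine codon in GENCODE M21 (GRCm38). The codon is given in capitals with 12 bases of the transcript on each side, 5′ to 3′, for the genes the results turn on, because the position of this codon is what distinguishes the family and differs between its members.
Gpx1 (chr9:108339451-108339453, plus strand): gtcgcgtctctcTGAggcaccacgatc
Gpx4 (chr10:80054737-80054739, plus strand): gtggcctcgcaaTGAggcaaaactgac
Msrb1 (chr17:24740158-24740160, plus strand): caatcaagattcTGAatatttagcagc
Selenow (chr7:15920464-15920466, minus strand): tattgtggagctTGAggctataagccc
Selenom (chr11:3516273-3516275, plus strand): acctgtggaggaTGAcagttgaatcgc
Selenok (chr14:29973440-29973442, plus strand): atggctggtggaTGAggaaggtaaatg
Selenop (chr15:3274848-3274850, plus strand): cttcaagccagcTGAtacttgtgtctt
In Selenow and Selenom a cysteine codon, TGT, lies 3 codons before the TGA, the arrangement of a redox motif of the thioredoxin fold. The other 8 genes lack a cysteine codon at that distance, whereas 4 of 14 further selenoprotein genes, Selenoh, Selenoo, Selenot and Selenov, have one. The codon is residue 13 of 88 in Selenow, 47 of 201 in Gpx1, 48 of 145 in Selenom, 95 of 116 in Msrb1 and 129 of 253 in the Gpx4 transcript used. In Selenok it is residue 92 of 94, 2 residues before the end, and in Selenos residue 189 of 190. Selenop, the selenium carrier, has 10 such codons, of which the first, at residue 59 of 380, is shown.

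Between 12550418 and 20854218 fragments were assigned to genes with vehicle, and between 13228819 and 26079343 with GW2580. Levels are counts scaled to the library size (CPM), with library sizes adjusted by TMM factors, the trimmed mean of M-values. Treatment was tested with the quasi-likelihood F test of edgeR over the 28419 genes above 1 CPM in at least 3 libraries. The call required a fold change over 2 together with an unadjusted p under 0.05. The edgeR p-values printed are adjusted over all genes tested, so where a call was lost with the fold still over 2, the unadjusted p was 0.05 or more. By this rule 6.70% of all genes tested were called lower and 4.01% higher with GW2580. After Benjamini-Hochberg adjustment 0 genes passed 0.05 with this edgeR test and 4186 had an unadjusted p under 0.05, while DESeq2 gave 177 adjusted calls, edgeR's likelihood ratio test 53 and limma-voom 0. Scaling by library size alone moved the median log2 fold change of all genes from -0.03 to 0.23 and the calls from 1905 lower and 1141 higher to 875 and 2123. On the first principal component, which held 47.1% of the variance of 7580 genes, vehicle 1 to 4 lay between 35.0 and 40.5 and GW2580 1 to 4 between -46.4 and 5.20. Vehicle 5, at -77.9, lay on the GW2580 side and past every GW2580 library. GW2580 5, at 45.8, lay on the vehicle side and past every vehicle library. Leaving out both for this reason conditions on the outcome and widens the group difference by construction (0 genes with an adjusted p under 0.05 became 4844). Values without both are therefore given as fold changes, with no test, outside the tallies over alternatives. Leaving out 1 of them alone shares this limit, so a call gained that way is not read as a result. Of 15 microglial markers, C1qb and C1qc had the highest levels, Aif1 had 0 counts and Trem2 was at or near 0 in every library. Only uniquely aligned fragments were counted, and the cause of these values was not tested. Neither they nor the 0 counts of Cldn5 below are read as absence of the transcript. The summed level of the 15 markers ranged from 15362 CPM in vehicle 5 to 65284 CPM with vehicle. With GW2580 it ranged from 20367 to 70624 CPM.

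Of the 9 genes counted, 8 had a lower fitted level with GW2580, and 5 passed the call: Gpx4, Selenow, Selenom, Selenok and Msrb1. The background beside this count is the 6.70% of all genes called lower, and a log2 fold change below 0 was found for 51.6% of all genes. No gene of the list was called higher. The median log2 fold change of the 9 genes was -1.21, against -0.03 over all genes tested. All 9 genes were above 1 CPM in all 10 libraries, the lowest value being 1.69 CPM for Selenom in GW2580 1, so none passed the filter through 1 group alone. No adjusted edgeR p among them was under 0.05, the lowest being 0.280, while DESeq2 gave adjusted p = 0.0222 for Selenow and 0.0302 for Gpx4. These are bulk libraries, in which fewer cells of a type and less RNA per cell cannot be told apart.

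**Figure D1:**
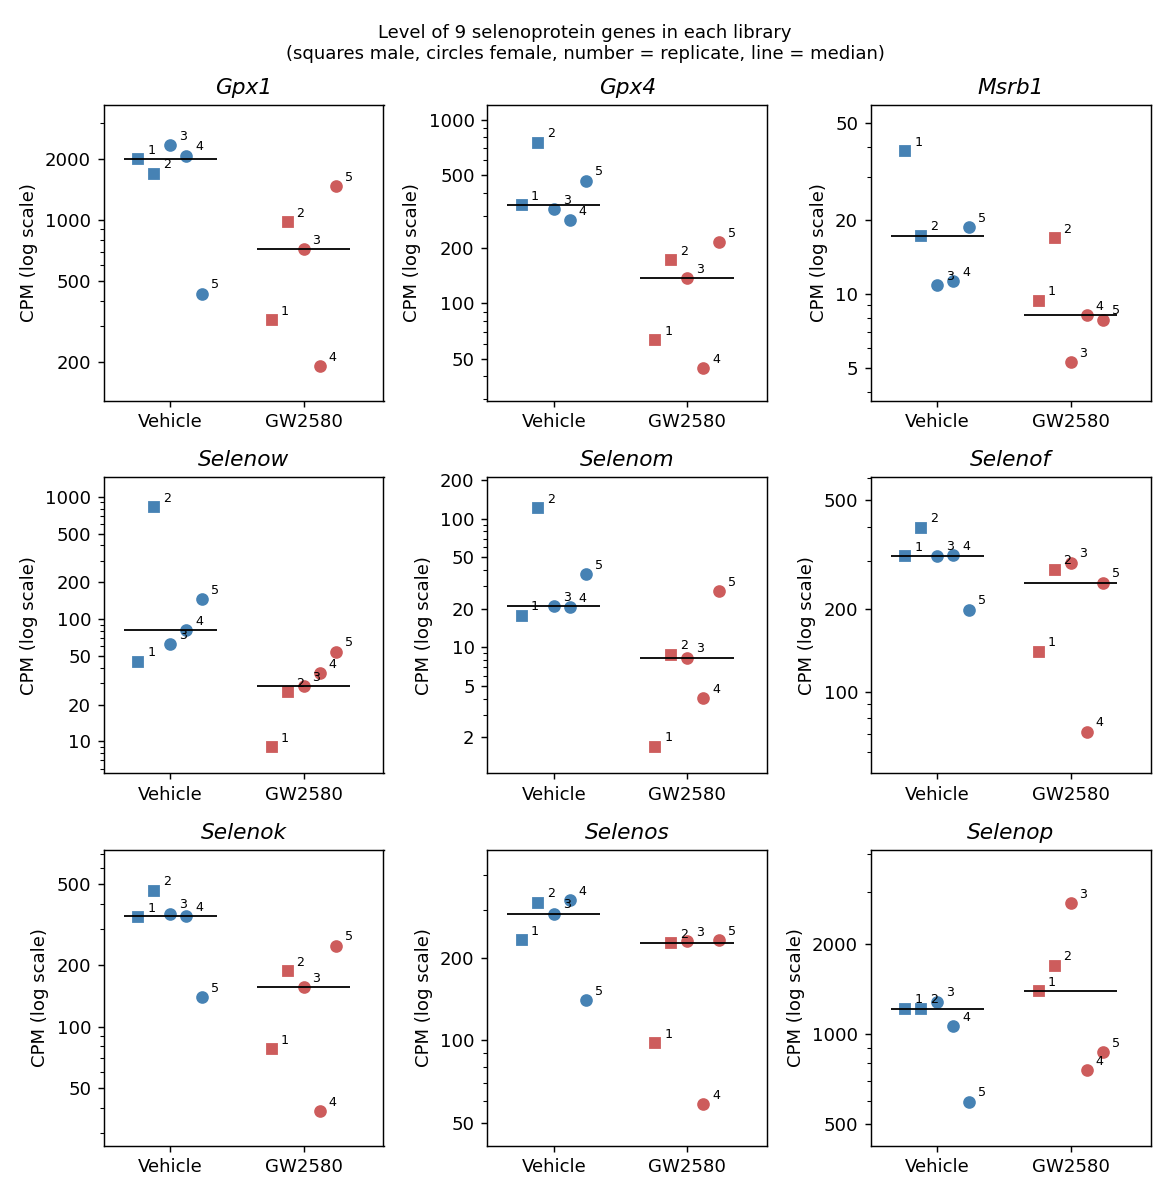
Level of each of the 9 genes in every library, in CPM after TMM scaling on a logarithmic axis, with vehicle in blue and GW2580 in red, squares for males, circles for females, replicate numbers beside the points and a line at the group median. The 5 GW2580 libraries lie below all 5 vehicle libraries for Gpx4, 4 of 5 do for Selenow, Selenom and Msrb1, and for Selenop 3 of 5 lie above all vehicle libraries.

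Gpx4 (NCBI gene 625249, chr10:80047166-80056439) reduces lipid hydroperoxides within membranes and thereby restrains ferroptosis. It was at 343, 748, 326, 284 and 467 CPM in vehicle 1 to 5 and at 62.9, 172, 137, 44.3 and 215 CPM in GW2580 1 to 5. The groups did not overlap, which held for this gene alone among the 9. All 5 GW2580 libraries were below all vehicle libraries for 0.985% of all genes tested, and above them for 2.04% (0 of the 9). Gpx4 averaged 434 ± 189 CPM in vehicle libraries and 126 ± 72.0 CPM in GW2580 libraries (SD, n = 5). The fitted level was 3.44-fold lower with GW2580 (log2 fold change -1.78 ± 0.47 SE, edgeR adjusted p = 0.280). Exact permutation of the group labels, two-sided, gave p = 0.00794, the smallest this design can give, and 0.262 after adjustment over all genes. Gpx4 was called in 28 of 29 alternative analyses, all but the 3 females against 3 alone, where the log2 fold change was -1.41 (adjusted p = 1.00). The 29 alternatives, here and below, include the fit without vehicle 5 and GW2580 5. Its difference is widened by construction, so a tally can hold a call from that fit.

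A processed copy of Gpx4, Gpx4-ps2 (chr10:45875290-45876066), can share fragments with it. It held between 8.85% and 12.7% of the Gpx4 level in every library, and averaged 45.9 ± 21.9 CPM in vehicle libraries and 12.4 ± 6.31 CPM in GW2580 libraries (SD, n = 5). The 2 genes were therefore lower in the same libraries, and how the fragments divide between them was not tested.

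Gpx1 (NCBI gene 14775, chr9:108339080-108340342) is the cytosolic enzyme that reduces hydrogen peroxide with glutathione. It was at 1989, 1689, 2325, 2066 and 435 CPM in vehicle 1 to 5 and at 321, 976, 721, 191 and 1462 CPM in GW2580 1 to 5. Vehicle 5 lay below 3 GW2580 libraries, and GW2580 5 was the nearest of its group to the other 4 vehicle libraries. The log2 fold change was -1.21 ± 0.58 SE and did not pass the call (edgeR adjusted p = 0.348), and the exact permutation test gave p = 0.0952. Without vehicle 5 the log2 fold change was -1.46 (adjusted p = 0.170), and without GW2580 5 it was -1.71 (adjusted p = 0.139), each past the call. Vehicle 5 was the lowest vehicle library and GW2580 5 the highest GW2580 library, so leaving out either widens the difference by construction. Over all genes 1894 of 28120 were called lower without vehicle 5 and 3637 of 27585 without GW2580 5. Without both libraries the log2 fold change of Gpx1 was -1.96, a widening built into that choice.

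Msrb1 (NCBI gene 27361, chr17:24736593-24742778) reduces the R form of oxidised methionine. Per length of exon it was the least abundant of the 9 genes. It was at 38.3, 17.3, 10.9, 11.3 and 18.8 CPM in vehicle 1 to 5 and at 9.40, 16.9, 5.28, 8.19 and 7.85 CPM in GW2580 1 to 5. Vehicle 1 was well above the rest, and GW2580 2 lay within the vehicle range. The fitted level was 2.03-fold lower with GW2580, just past the fold required (log2 fold change -1.02 ± 0.41 SE, edgeR adjusted p = 0.293, exact permutation p = 0.0476). Without vehicle 1 the log2 fold change was -0.61 (adjusted p = 0.480). The call was also lost without GW2580 3 (-0.86, adjusted p = 0.444) and without GW2580 4 (-0.96, adjusted p = 0.438), and was made in 16 of 29 alternatives. Vehicle 1 and GW2580 2 had the highest Msrb1 level of their groups. They also had the highest summed level of 8 monocyte and granulocyte markers, led by Ngp and S100a9, none at 0 in all libraries. These summed to 25485 CPM in vehicle 1 and to 467 to 7354 CPM in the other vehicle libraries. They summed to 11354 CPM in GW2580 2 and to 553 to 5518 CPM in the other GW2580 libraries. Of the 8 markers, 1 was called lower, against 6.70% of all genes. Vehicle 1 was the highest of its group for each of the 8. With GW2580, Ly6c2, Ngp, Camp, Lcn2 and Plac8 were highest in GW2580 2. S100a8 and S100a9 were highest in GW2580 5, at 1395 and 2139 CPM, and Ccr2 in GW2580 3. The part of these markers in the difference of Msrb1 was not tested.

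Selenow (NCBI gene 20364, chr7:15917208-15922371) encodes a small cytosolic protein with a thioredoxin-like fold. It had the largest fitted difference of the 9 genes. Its levels were 45.0, 823, 62.3, 81.2 and 146 CPM in vehicle 1 to 5 and 8.99, 25.3, 28.4, 36.0 and 54.2 CPM in GW2580 1 to 5. Vehicle 2 was far above every other library, and of the GW2580 libraries only GW2580 5 reached the vehicle range. The log2 fold change was -2.92 ± 0.79 SE (edgeR adjusted p = 0.280, exact permutation p = 0.0159). Without vehicle 2 it was -1.45 (adjusted p = 0.497), and without vehicle 2 and vehicle 5 it was -1.04 (adjusted p = 0.351), still past the call.

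Selenom (NCBI gene 114679, chr11:3514684-3517351) is a related thioredoxin-like protein of the endoplasmic reticulum (ER) that is abundant in brain. It was at 17.6, 121, 21.0, 20.6 and 37.0 CPM in vehicle 1 to 5 and at 1.69, 8.76, 8.28, 4.02 and 27.4 CPM in GW2580 1 to 5. The pattern was that of Selenow, with vehicle 2 highest, GW2580 1 lowest and GW2580 5 alone within the vehicle range. The log2 fold change was -2.12 ± 0.71 SE (edgeR adjusted p = 0.280, exact permutation p = 0.0317). The call was lost without vehicle 2 (-1.26, adjusted p = 0.525), and the log2 fold change was -3.03 without GW2580 5 (adjusted p = 0.0711).

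Vehicle 2 and vehicle 5 also had the highest summed levels of glial and neuronal markers. The 8 oligodendrocyte markers, of which Mbp and Mobp were highest and none was at 0 in all libraries, summed to 158 to 17577 CPM with vehicle and 171 to 1736 CPM with GW2580. Vehicle 2 was at 17577 CPM, vehicle 5 at 3889 CPM and GW2580 4 at 1736 CPM, while the other 7 libraries were at 158 to 554 CPM. The 8 astrocyte markers, led by Slc1a3 and Aldoc, summed to 195 to 3069 CPM with vehicle and 197 to 645 CPM with GW2580, and the 8 neuronal markers, led by Snap25 and Rbfox3, to 54.8 to 601 CPM and 53.4 to 173 CPM. Vehicle 2 was again highest in both sums. Gene by gene, Mbp, Mobp and Mog were highest in vehicle 2, but Sox10, Olig1, Olig2, Mag and Cnp in vehicle 5. Gfap, Slc1a2 and Aldoc were highest in vehicle 2, Aldh1l1, Aqp4, Gja1 and Sox9 in vehicle 5, and Slc1a3 in GW2580 3. All neuronal markers but Slc17a7 were highest in vehicle 2. Markers of endothelial and mural cells (8 genes, led by Pecam1 and Vtn, with Cldn5 at 0 counts) summed to at most 193 CPM and those of border macrophages (7 genes, led by F13a1 and Cbr2) to at most 281 CPM in any library, with 0 called lower in either list and 1 of 6 border macrophage genes called higher. Among the markers tested, 4 of 7 oligodendrocyte, 2 of 8 astrocyte and 2 of 8 neuronal genes were called lower with GW2580. The shares over all genes were 6.70% lower and 4.01% higher. With the mean level of the 3 glial and neuronal lists added to the model, the log2 fold change of Selenow was -1.61 (adjusted p = 0.402) and that of Gpx4 -1.58 (adjusted p = 0.402), both still past the call. Selenom, at -1.39 (adjusted p = 0.441), lost its call in that fit and Gpx1, at -1.52 (adjusted p = 0.402), gained one, so that 5 of the 9 genes were called. That fit called 1036 of 28419 genes lower over all genes, against 1905 without this term.

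**Figure D2:**
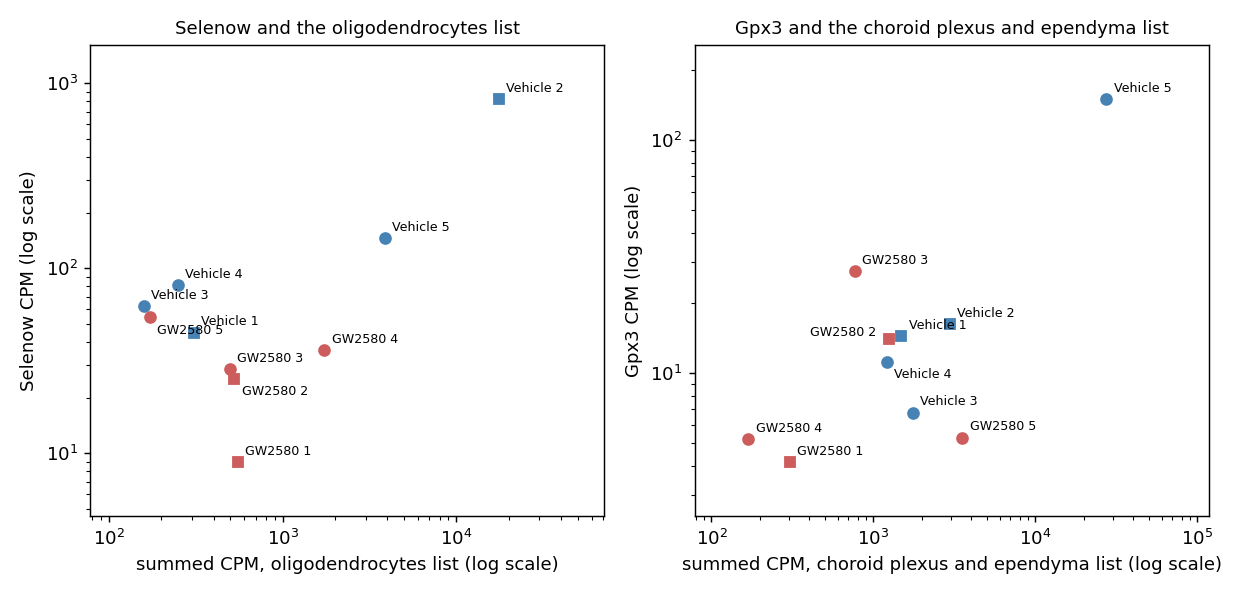
Left, Selenow against the summed level of 8 oligodendrocyte markers, and right, Gpx3 against the summed level of 8 choroid plexus and ependymal markers, each point 1 library, both axes in CPM on a logarithmic scale, vehicle in blue, GW2580 in red, squares male and circles female. Vehicle 2 is highest on both axes on the left, at 823 CPM of Selenow, and vehicle 5 on the right, at 150 CPM of Gpx3.

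Selenok (NCBI gene 80795, chr14:29968380-29975074) is an ER membrane protein that works with the palmitoyltransferase Zdhhc6 and is known for its part in calcium flux of immune cells. It was at 342, 463, 357, 347 and 139 CPM in vehicle 1 to 5 and at 77.2, 186, 156, 38.4 and 248 CPM in GW2580 1 to 5. Apart from vehicle 5, every vehicle library lay above every GW2580 library. The log2 fold change was -1.22 ± 0.49 SE and passed the call (edgeR adjusted p = 0.290, exact permutation p = 0.0317). It no longer passed without vehicle 2 (-1.07, adjusted p = 0.522) or without GW2580 1 (-1.06, adjusted p = 0.649), where the fold stayed over 2, or without GW2580 4, where the log2 fold change was -0.98. Its processed copies had few counts, and the 3 that passed the filter, Selenok-ps1, Selenok-ps2 and Selenok-ps3, averaged at most 5.18 CPM in either group. Selenok-ps2 was called higher with GW2580 (log2 fold change 1.62, edgeR adjusted p = 0.280). Selenok-ps1 was at 0.87, under the fold required, and Selenok-ps3 at -0.33. How fragments divide between these copies and Selenok was not tested.

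Selenos (NCBI gene 109815, chr7:66079649-66089405) and Selenof (NCBI gene 93684, chr3:144570427-144597677) also belong to the ER. Selenos links the ATPase Vcp to the Derl proteins in the removal of misfolded proteins, and was at 232, 318, 289, 325 and 140 CPM in vehicle 1 to 5 and at 97.4, 226, 230, 58.5 and 232 CPM in GW2580 1 to 5. Selenof binds the glycoprotein-folding sensor Uggt1, and was at 312, 397, 314, 314 and 199 CPM in vehicle 1 to 5 and at 140, 279, 295, 71.5 and 250 CPM in GW2580 1 to 5. In both genes vehicle 5 lay below 3 GW2580 libraries, and GW2580 1 and 4 were lowest. Neither difference passed the call, with log2 fold changes of -0.63 ± 0.43 SE for Selenos (edgeR adjusted p = 0.492) and -0.57 ± 0.40 SE for Selenof (adjusted p = 0.511). Without vehicle 5 and GW2580 5, the log2 fold change of Selenos was -1.02, past the fold required, and that of Selenof -0.87.

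Selenop (NCBI gene 20363, chr15:3270767-3280510) is secreted and delivers selenium to other cells. It was the one gene of the 9 with a higher fitted level with GW2580. It was at 1221, 1219, 1288, 1065 and 596 CPM in vehicle 1 to 5 and at 1395, 1700, 2742, 758 and 870 CPM in GW2580 1 to 5. GW2580 1 to 3 were above every vehicle library, and GW2580 4 and 5 lay within the vehicle range. It averaged 1078 ± 282 CPM in vehicle libraries and 1493 ± 797 CPM in GW2580 libraries (SD, n = 5), a difference that did not pass the call (log2 fold change 0.47 ± 0.44 SE, edgeR adjusted p = 0.620, exact permutation p = 0.413). GW2580 3 was the highest library, and without it the log2 fold change was 0.13 (adjusted p = 0.899).

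Of the summed CPM of the 9 genes, Selenop made up 21.0% to 27.4% in the vehicle libraries and 25.8% in GW2580 5, but 47.3% to 66.0% in GW2580 1 to 4. The sum itself was 2177 to 5796 CPM with vehicle and 1209 to 4323 CPM with GW2580, and in GW2580 4, where it was lowest, Selenop held 62.6% of it although its own level was below that of 4 vehicle libraries. The ratio of Selenop to Gpx1 was 0.52 to 0.72 in vehicle 1 to 4 and 1.37 in vehicle 5, and it was 4.34, 1.74, 3.81, 3.97 and 0.60 in GW2580 1 to 5. GW2580 5 thus stayed with the vehicle libraries on both measures.

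Txnrd2 (NCBI gene 26462, chr16:18426417-18479073), the mitochondrial thioredoxin reductase, gave no value. Its exons are listed in the count files on 4 sequences, the chromosome and alternate scaffolds, and the other 9 genes on 1 each. Among the 1867 genes listed on more than 1 sequence, 38.2% had 0 counts in all libraries, against 3.05% of the other 44285 genes, and the shares were 25.9% and 1.79% among protein-coding genes. Only uniquely aligned fragments were counted, so no level or limit is given for Txnrd2.

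Levels were compared between genes as CPM per kilobase of exon. With vehicle Gpx1 was highest, at 1628 ± 711, followed by Selenop at 486 ± 127, Selenow at 328 ± 472, Selenok at 324 ± 116, Gpx4 at 296 ± 129, Selenos at 214 ± 63.0, Selenof at 203 ± 46.7, Selenom at 48.8 ± 49.6 and Msrb1 at 14.8 ± 8.57 (SD, n = 5). The vehicle ranges of every pair of neighbours in this order overlapped. The place of Selenow rested on vehicle 2, at 1167, and by the median of the vehicle libraries it was at 115, below Selenok at 341, Gpx4 at 234, Selenos at 237 and Selenof at 208. With GW2580 Gpx1 at 703 and Selenop at 673 lay close together, Selenow at 43.4 was likewise below Selenok, Selenos, Selenof and Gpx4, and Selenom at 11.3 and Msrb1 at 7.29 remained lowest.

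**Figure D3:**
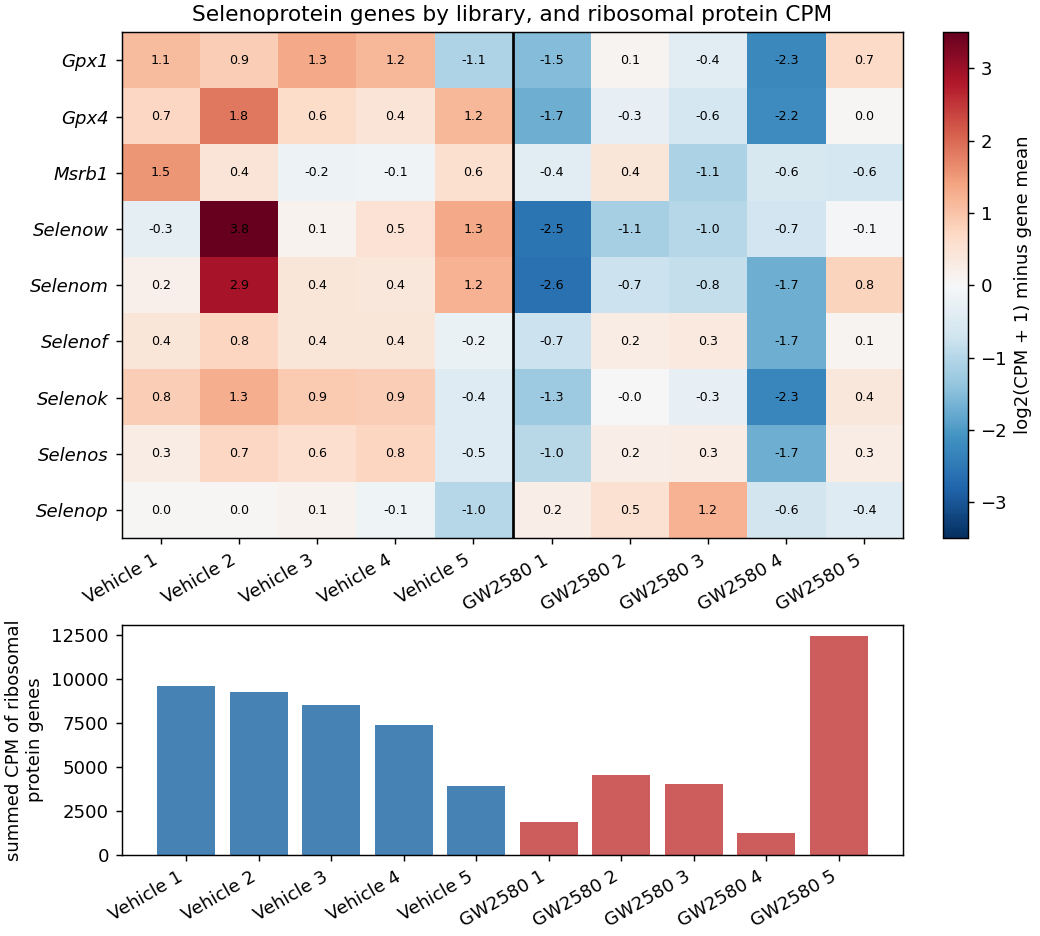
Top, log2(CPM + 1) of each of the 9 genes minus its mean over the 10 libraries, printed in each cell, blue below and red above the gene's mean. Bottom, the summed CPM of 81 cytosolic ribosomal protein genes in the same libraries. GW2580 4 holds the lowest value of 5 genes and vehicle 2 the highest of 5, and GW2580 5 has the highest ribosomal protein level, 12480 CPM.

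The mean log2 CPM of the 9 genes was 7.68, 8.56, 7.63, 7.61 and 7.26 in vehicle 1 to 5 and 5.78, 7.05, 6.85, 5.58 and 7.26 in GW2580 1 to 5. GW2580 1 and 4 were thus lowest, and GW2580 5 equalled vehicle 5. Ribosomal protein transcripts, which are short and abundant, summed to 9605, 9286, 8527, 7412 and 3946 CPM in vehicle 1 to 5 and to 1869, 4562, 4050, 1224 and 12480 CPM in GW2580 1 to 5, with GW2580 1 and 4 again lowest. Fragments on no annotated exon made up 38.4% to 49.1% of the counting records with vehicle and 38.7% to 60.1% with GW2580, and GW2580 4 and GW2580 1 were highest, at 60.1% and 56.1%. With the ribosomal protein level in the model, 3 of the 9 genes were called (Gpx4, Selenow and Selenom) and the log2 fold change of Gpx1 was -0.26 (adjusted p = 0.892). With the percentage off annotated exons in the model, Gpx4 alone was called (-1.16, adjusted p = 0.656), while Selenow at -2.0 ± 1.19 SE, Selenom at -1.07 ± 0.95 SE and Gpx1 at -1.06 ± 0.64 SE were still over 2-fold lower without passing the call. The part of either measure in the result was not tested.

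All 9 genes have short mRNAs, of 705 to 2218 exon bases. Of the 11433 genes tested that are no longer than this, 7.83% were called lower and the median log2 fold change was -0.08, against 5.95% and 0.00 of the 16986 longer genes. After removal of the trend with length in each library, 5 of the 9 genes were called, with Gpx1 in place of Msrb1, and the log2 fold change of Gpx4 was -1.76. That fit called 1932 of 28419 genes lower over all genes.

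The rest of the family was described from a list of 14 selenoprotein genes. Of the 12 that passed the filter, 6 were lower and 6 higher with GW2580, with a median log2 fold change of 0.02. Of these 12, 1 was called lower and 0 higher, against 6.70% and 4.01% of all genes. The called gene was Gpx3, the secreted glutathione peroxidase, with a log2 fold change of -1.83 ± 0.83 SE (edgeR adjusted p = 0.331). It was at 14.4, 16.2, 6.77, 11.2 and 150 CPM in vehicle 1 to 5 and at 4.16, 14.0, 27.3, 5.21 and 5.28 CPM in GW2580 1 to 5. Vehicle 5 was far above the other 9 libraries, among which the groups overlapped. Without vehicle 5 the log2 fold change was -0.12 (adjusted p = 0.894), whereas without GW2580 1, 2, 4 or 5 the call was lost with log2 fold changes of -1.61, -1.92, -1.64 and -1.68 (adjusted p = 0.666, adjusted p = 0.412, adjusted p = 0.487 and adjusted p = 0.279). Vehicle 5 also had the highest summed level of the 8 choroid plexus and ependymal markers, led by Ttr and Clic6. None of these markers was at 0 in all libraries. They summed to 27375 CPM in vehicle 5, 1214 to 2974 CPM in vehicle 1 to 4 and 169 to 3537 CPM with GW2580. Of the 7 tested, 6 were called lower, against 6.70% of all genes. Ccdc153 and Tmem212 were highest in vehicle 3 and the others in vehicle 5. Clic6 and Otx2 were at most 10.6 and 8.19 CPM in vehicle 1 to 4, and reached 38.1 and 7.83 CPM with GW2580. The part of vehicle 5 in the marker calls was not tested.

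Selenoh, a nuclear protein, was at 34.4, 36.0, 33.0, 26.3 and 15.6 CPM in vehicle 1 to 5 and at 3.90, 14.6, 10.3, 3.03 and 40.8 CPM in GW2580 1 to 5. GW2580 1 to 4 were below every vehicle library and GW2580 5 was above them all. Its fitted level was 2.01-fold lower with GW2580 and did not pass the call (edgeR adjusted p = 0.428), and without GW2580 5 the log2 fold change was -1.96 (adjusted p = 0.0777). Dio1, a deiodinase, had a log2 fold change of 0.72 ± 0.32 SE (adjusted p = 0.316), under the fold required.

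The other members of the family showed differences that passed neither threshold. Sephs2, which makes the selenium donor and is itself a selenoprotein, had a log2 fold change of 0.47 ± 0.34 SE, and Txnrd1, the cytosolic thioredoxin reductase, 0.10 ± 0.43 SE. On the same scale Selenoo, Selenoi and Selenon were at 0.53, 0.37 and 0.36, and Dio2, Selenot, Txnrd3 and Selenov at -0.06, -0.13, -0.31 and -0.74. Without vehicle 5, Selenon (log2 fold change 1.22, adjusted p = 0.163) and Selenoi (1.07, adjusted p = 0.163) were called higher. Vehicle 5 was the highest vehicle library for both, so leaving it out raises the fold change by construction. That fit called 1739 of 28120 genes higher over all genes, against 1141 as reported. Dio3 and Gpx2 did not pass the filter and were at most 1.19 and 1.61 CPM.

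**Figure D4:**
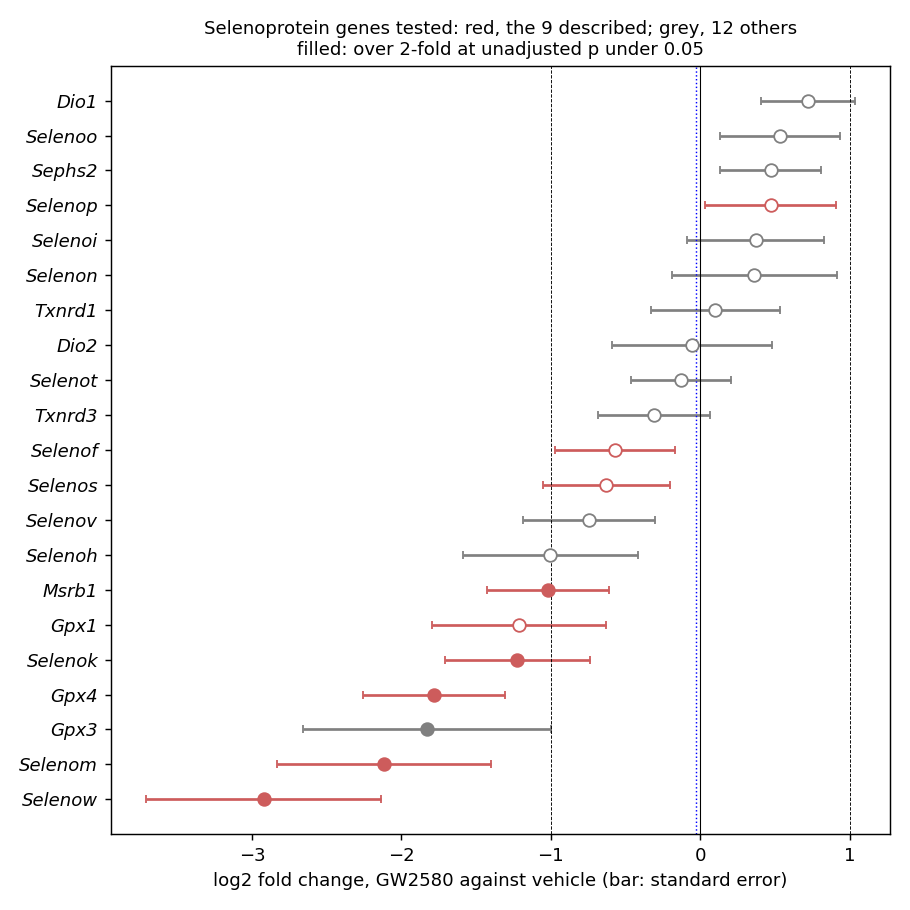
Log2 fold change of GW2580 against vehicle with its standard error for the 9 genes described (red) and 12 other selenoprotein genes (grey), filled where over 2-fold at an unadjusted p under 0.05, with dashed lines at 2-fold and a dotted line at the median of all genes tested. Filled points are Selenow, Selenom, Gpx3, Gpx4, Selenok and Msrb1, and Selenop lies among the genes above 0, at 0.47.

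Of 12 genes for the insertion and transport of selenium, 0 were called, 9 were below 0 and the median log2 fold change was -0.20. Ncl, Secisbp2l and Eefsec had the highest levels of these. Ncl, which binds selenoprotein mRNAs, had a log2 fold change of -0.06 ± 0.34 SE and Eefsec, the elongation factor for selenocysteine, one of 0.06 ± 0.33 SE. Secisbp2l, a paralogue of the protein that binds the stem-loop, had a log2 fold change of -0.73 ± 0.30 SE (edgeR adjusted p = 0.302), under the fold required. Without GW2580 5, 1 gene of this list was called lower, Rpl30, a ribosomal protein that also binds the stem-loop, with a log2 fold change of -1.83 (adjusted p = 0.0708). GW2580 5 was the highest GW2580 library for Rpl30, so leaving it out widens the difference by construction. That fit called 3637 of 27585 genes lower over all genes, against 1905 as reported.

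Among 7 relatives that use cysteine in place of selenocysteine, 1 was called lower and 0 higher, and the median log2 fold change was -0.50. The shares over all genes were 6.70% lower and 4.01% higher. The called gene was Gpx8, an ER glutathione peroxidase, with means of 19.9 ± 29.7 CPM in vehicle libraries and 3.30 ± 2.14 CPM in GW2580 libraries (SD, n = 5). The difference on the log2 scale was -2.60 ± 0.81 SE (edgeR adjusted p = 0.280), and vehicle 5, at 72.6 CPM, was far above the other libraries. Without vehicle 5 it was -1.03 (adjusted p = 0.220).

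Of 10 genes for the glutathione and thioredoxin systems, 1 was called lower and 0 higher, with a median log2 fold change of -0.38. The shares over all genes were 6.70% lower and 4.01% higher. Txn2, the mitochondrial thioredoxin and substrate of Txnrd2, averaged 151 ± 62.8 CPM in vehicle libraries and 71.9 ± 32.1 CPM in GW2580 libraries (SD, n = 5). The log2 fold change of Txn2 was -1.07 ± 0.40 SE (edgeR adjusted p = 0.280). It did not pass without vehicle 2 (-0.88, adjusted p = 0.515), without vehicle 5 (-0.92), without GW2580 1 (-0.93, adjusted p = 0.642) or without GW2580 4 (-0.90). Txn1, the cytosolic thioredoxin, was at 169, 115, 79.9, 66.9 and 30.3 CPM in vehicle 1 to 5 and at 14.4, 49.6, 18.5, 7.15 and 145 CPM in GW2580 1 to 5. GW2580 5 lay above 4 vehicle libraries. Its log2 fold change was -0.98 ± 0.70 SE and did not pass the call (edgeR adjusted p = 0.517), and without GW2580 5 it was -2.12 and passed (adjusted p = 0.0962). GW2580 5 was the highest GW2580 library for Txn1, so leaving it out widens the difference by construction. Without that library 3637 of 27585 genes were called lower over all genes. Aifm2, which reduces coenzyme Q, had a log2 fold change of -0.89 ± 0.43 SE (adjusted p = 0.355) and passed the call without vehicle 3 (-1.03, adjusted p = 0.345) or without vehicle 4 (-1.11, adjusted p = 0.251). Gclc, the catalytic subunit of the rate-limiting enzyme of glutathione synthesis, had a log2 fold change of 0.76 ± 0.35 SE (adjusted p = 0.332), under the fold required.

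Of 9 ER partners of Selenok, Selenos and Selenof, 0 were called, 7 were above 0 and the median log2 fold change was 0.17. Vcp, Derl1 and Syvn1, the highest in level, had log2 fold changes of 0.00, 0.41 and 0.09, each with an SE of at least 0.38. Vehicle 5 had the highest vehicle level of all 3, and without it Vcp (log2 fold change 1.02, adjusted p = 0.182) and Syvn1 (1.07, adjusted p = 0.167) were called higher. Over all genes 1739 of 28120 were called higher in that fit.

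**Figure D5:**
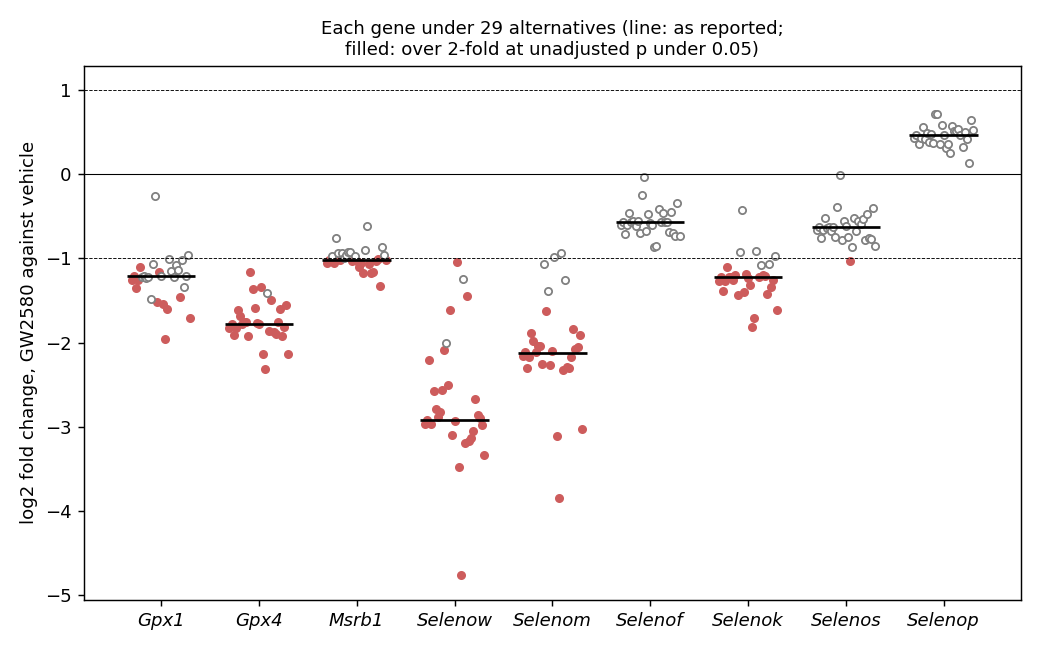
Log2 fold change of each of the 9 genes under 29 alternative analyses (points) and as reported (line), filled where over 2-fold at an unadjusted p under 0.05. Every point lies on the same side of 0 as the reported value, and Gpx4 is filled in 28 of 29, Selenow in 27, Selenom in 24, Selenok in 23, Msrb1 in 16 and Gpx1 in 12.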

How the data were processed

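RNA of CD11b-selected microglia from 10 mice, 5 per group, was sequenced as read pairs. The authors aligned the pairs to GRCm38 with STAR and deposited raw, unnormalised counts of uniquely aligned fragments per RefSeq gene, summed over exons without regard to strand. Per the file headers they were made with featureCounts 1.6.3. Groups, sex and replicate numbers came from the labels, and symbols from RefSeq, which held 46029 of 46152 genes. The genes and lists were chosen with earlier results of these data known.

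Genes over 1 CPM in 3 or more libraries entered an edgeR 4.0.16 fit (R 4.3.3) with treatment as its single term. Filter, scaling, model and call rule followed the study, whose methods name edgeR but not which of its tests. The SE was the log2 fold change divided by the square root of F. Permutation tests took log2 CPM with a prior count of 2 (Python 3.11.15, numpy 2.4.6, scipy 1.17.1, pandas 2.3.3), and figures were drawn in matplotlib 3.10.9. Alternatives used DESeq2 1.42.0, limma 3.58.1, other scalings, filters, covariates and thresholds, a loess fit on length (span 0.5), thinned counts and left-out libraries. The quasi-likelihood fit with treatment alone was tested on simulated counts with the same dispersion for every gene. The other fits were not tested in this way. Selenocysteine codons were read from GENCODE M21.

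Named were all genes of the main list, all other selenoprotein genes with a count, called genes of each further list or else its 3 most abundant, and the 2 most abundant markers of each cell type. Gclc, genes called in an alternative alone, and markers at 0 were named after their values were seen. Each count covers 1 library per mouse, and read counts carry a counting error that the spread between mice includes.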

Additional observations from a re-analysis of the deposited data

Results flagged for a closer look

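In 12 of 42 groups of 5 libraries tested, 1 library lay far from the others. Far meant a gap to its nearest neighbour of over 0.71 of the group's range. That limit flags about 1 in 20 groups of independent, normally distributed values. Here CPM were not transformed and the groups share the same 10 libraries, so 12 of 42 cannot be set against that rate. Vehicle 5 accounted for 6 of the 12. It was highest for Gpx3 (150 CPM, the next vehicle library at 16.2), Txnrd1 (135 against 45.3), Selenon (107 against 25.9), Selenoo (56.3 against 25.4), Selenoi (38.4 against 11.0) and Txnrd3 (15.6 against 7.52). Vehicle 2 was highest for Selenow (823 CPM against 146), Selenom (121 against 37.0) and Selenov (2.59 against 1.37), and vehicle 1 for Msrb1 (38.3 against 18.8). With GW2580, replicate 5 was highest for Selenom (27.4 CPM against 8.76) and replicate 3 for Txnrd1 (103 against 55.0).

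The log2 fold change of Selenow was -4.66 in the 2 males against 2 and -1.29 in the 3 females against 3, a difference of -3.37. The edgeR interaction of sex and treatment gave it an adjusted p = 1.00 over all genes, and it was the only one of 21 selenoprotein genes with an unadjusted p under 0.05. Over all genes 0 passed the adjusted threshold with this edgeR test and 717 had an unadjusted p under 0.05. The vehicle males include vehicle 2, the library with the highest Selenow level and the highest summed oligodendrocyte markers. The part of that library in the difference was not tested.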

How the results depend on the processing

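Each of the 9 genes kept the sign of its fold change under all 29 alternatives. The count of genes called lower, 5 as reported, was 3 with the ribosomal protein level in the model, 1 with the percentage off annotated exons, 0 in females alone, 2 at p under 0.01, 6 in males alone, and 3 to 6 with 1 library left out (3 without vehicle 2 or without GW2580 4). Their median log2 fold change, -1.21 as reported, was -0.43 with the ribosomal protein level and -1.61 to -0.96 with 1 library left out. Over all genes the count called lower, 1905 as reported, was 1768, 476, 530 (of 25656), 522 and 3446 (of 24019) in the first 5 of these. With 1 library left out it was 1087 (of 27723, without GW2580 1) to 3637 (of 27585, without GW2580 5). The cause of these changes was not tested. Vehicle 5 and GW2580 5 were left out together because each lay on the side of the opposite group on the first principal component. That choice widens the difference by construction, so no calls from this fit are listed here.

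Of the other selenoproteins 1 was called lower as reported. The count was 0 with DESeq2, which gave Gpx3 no p, with sex, the percentage off annotated exons or the glial and neuronal level in the model, without vehicle 2 and vehicle 5, in females alone and at p under 0.01. It was 2 with the length trend removed (Gpx3 and Selenoh), and 0 to 1 with 1 library left out. For the selenium insertion and transport genes, 0 as reported, it was 1 with limma-voom and at a fold over 1.5. In males alone it was 2 (Rpl30 and Pstk), and with 1 library left out 0 to 1.

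The replicate numbers gave no clear pairing of the libraries, though 5 correlations cannot exclude one. Same-numbered libraries were of the same sex. The correlations of same-numbered libraries, as deviations from the group means over 7580 genes, were -0.05, 0.39, 0.09, -0.44 and -0.57, and 1 of 5 vehicle libraries correlated best with its own number. With the replicate number as a block, 4 of the 9 genes were called (Msrb1 was at -0.96), 1 other selenoprotein (Selenoh in place of Gpx3), 0 selenium insertion genes, and 1499 genes lower and 1055 higher over all genes. Dio3 and Gpx2 were left out by the filter. Without a filter neither was called, with log2 fold changes of -0.47 ± 0.63 SE and -1.14 ± 0.67 SE.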
